A study of Mus musculus with 6 samples.

Results

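The mitochondrial genome carried 103 of the 2197 AGO2 target peaks listed for mouse cortex at postnatal day 14 (4.69%, exact binomial 95% interval 3.84 to 5.66). The members described here are all peaks that the list places on that genome, with each peak given to the gene that held its midpoint. Of the 103 peaks, 24 fell in the 2 ribosomal RNA (rRNA) genes, 64 in the protein-coding genes, 13 in transfer RNA (tRNA) genes and 2 outside all 37 genes. The animals combined VGLUT2-Cre with a conditional Spy3-AGO2 allele, which gives AGO2 a tag that SpyCatcher3 captures, and the labels name pyramidal neurons as the cell type. Wild-type or Cre-negative animals form no group of the series. The 6 libraries form 3 groups of 2, namely AGO2-bound miRNA, AGO2-bound target RNA and input from whole lysate. The target side is 1 list of peak positions with no level per library, so no peak value below has a replicate error, the depth behind it is unknown, and nothing was tested between groups. The list holds no expression level with which the labelled cell type could be checked against its markers. It is not given in the sources used here if the peaks came from pooled libraries or were set against the input, and a peak alone is thus no proof of binding by AGO2.

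Mammalian mitochondria keep a small circular genome that is transcribed over nearly its whole length from both strands into long precursors. Most genes are read in the same direction, and tRNAs that sit between the rRNAs and mRNAs are cut out of the precursor, which frees the RNAs on either side. The mRNAs encode membrane subunits of respiratory complexes I, III and IV and of the ATP synthase (complex V). Most of these mRNAs have almost no untranslated sequence, and all are translated inside the organelle. AGO2, the protein that holds a miRNA and its target, is chiefly cytoplasmic, and work by several groups has reported AGO2 and miRNAs inside mitochondria. In neurons the mitochondrial RNAs are among the most abundant transcripts. In the mouse, 28 of the 37 genes are encoded in the direction of the plus strand of the reference, and ND6 and 8 tRNA genes in that of the minus strand.

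Peaks lay on the plus strand in 94 cases and on the minus strand in 9 (91.3% plus, exact 95% interval 84.1 to 95.9). Nuclear peaks divided into 1112 plus and 982 minus (53.1% plus, 50.9 to 55.3), and the 20 nuclear chromosomes ranged from 30.8% to 75.6% plus. Set against the direction of the gene at the midpoint, 94 mitochondrial peaks were sense, 7 were antisense and 2 lay outside genes. The sense peaks were 88 plus-strand and 6 minus-strand peaks. Of the antisense peaks, 6 were plus-strand peaks over minus-strand genes and 1 was the reverse.

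**Figure D1:**
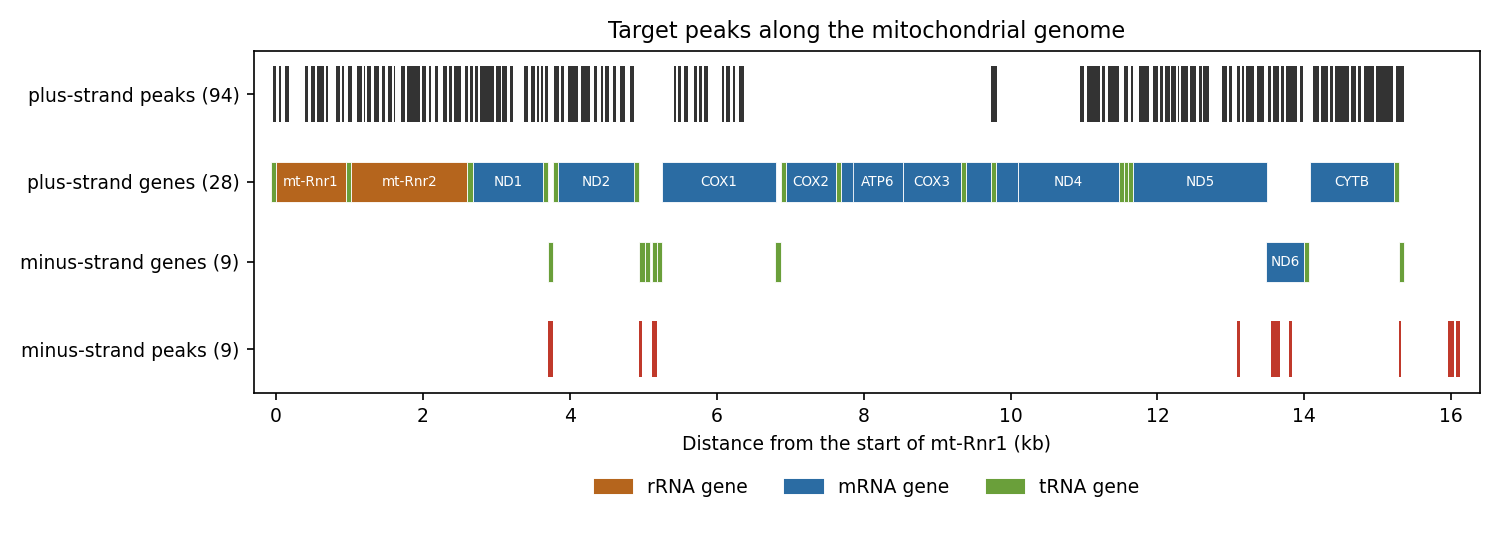
Target peaks (outer rows) and the 37 genes (inner rows, coloured by RNA type) along the mitochondrial genome, as distance in kb from the start of mt-Rnr1, with peaks and genes drawn to scale by strand. The 94 plus-strand peaks mostly follow each other at short intervals from TrnF to TrnP. A stretch from COX1 to ND4 holds 1 of them, and none lies beyond chrM:15426. The 9 minus-strand peaks lie near minus-strand genes and beyond the last gene.

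Both rRNAs, the RNA core of the mitochondrial ribosome, carried peaks along their length, with uncovered bases between them. mt-Rnr1, the small-subunit rRNA (chrM:70-1024 on mm10), held 8 peaks, or 8.38 per kb (exact Poisson 95% interval 3.62 to 16.5), which covered 40.5% of its bases. mt-Rnr2, the large-subunit rRNA (chrM:1094-2675), held 16 peaks, or 10.1 per kb (5.78 to 16.4), over 58.3% of its bases. All 24 were on the plus strand, and the densities of both rRNAs lay within each other's intervals. The widest rRNA peak measured 181 nt (chrM:1853-2033) and the narrowest 16 nt (chrM:1261-1276), both in mt-Rnr2. These intervals cover the counting of peaks alone, and neighbouring peaks of 1 RNA are not independent.

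The mRNA genes of complex I, which takes electrons from NADH, held 46 of the 64 peaks in mRNA genes. Of the 46, 40 were sense and 6 antisense. The complex I genes make up 6361 of the 11403 bases of the mRNA genes. ND5 (chrM:11742-13565) had the most of any mitochondrial gene with 17, or 9.32 per kb (5.43 to 14.9), of which 16 were sense. ND1 (chrM:2751-3707) had 9 peaks (9.40 per kb) over 58.4% of its bases. ND2 (chrM:3914-4951) also had 9 (8.67 per kb), over 60.2% of its bases. ND4 (chrM:10167-11544) had 4, all of them in the part downstream of position 11018. ND3 (chrM:9459-9806) and ND4L (chrM:9877-10173) had 0 by midpoint, and 3 bases of ND4L were covered by a peak centred on the tRNA before it. The complex I genes thus spanned the whole range from no peak to the most peaks on this genome.

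The span of ND6, the only mRNA gene encoded by the minus strand (chrM:13552-14070), held more antisense than sense peaks. The 2 sense peaks lay at chrM:13619-13741 and chrM:13857-13902 and covered 32.6% of the gene. The 5 plus-strand peaks over the same gene covered 67.6% of it, on the strand opposite to the ND6 mRNA. Which plus-strand RNA held them was not examined. The remaining minus-strand peak in a protein-coding gene lay opposite ND5, at chrM:13160-13200, downstream of ND6 along its own strand. Of the 9 minus-strand peaks, 5 overlapped a plus-strand peak.

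CYTB, the complex III subunit (chrM:14145-15288), had 8 peaks (6.99 per kb, 3.02 to 13.8), and these covered 78.4% of its bases, the highest share among the rRNA and protein-coding genes. It held the widest peaks on the genome, 226 nt (chrM:15051-15276) and 199 nt (chrM:14483-14681), ahead of 185 nt in ND1 (chrM:2849-3033). Complex IV, which passes electrons to oxygen, was represented by COX1 alone. COX1 (chrM:5328-6872) held 10 peaks (6.47 per kb, 3.10 to 11.9), none downstream of position 6437. COX2 (chrM:7013-7696) and COX3 (chrM:8607-9390) held 0, as did ATP8 (chrM:7766-7969) and ATP6 (chrM:7927-8607) of complex V. A count of 0 allowed up to 5.39 peaks per kb in COX2, 4.71 in COX3 and 5.42 in ATP6 (upper end of the exact Poisson 95% interval). These limits lie below the densities of ND1, ND2 and ND5 but above that of ND4 (2.90 per kb). The intervals of ND1 (from 4.30) and ND2 (from 3.96) reach below them. ATP8, ND3 and ND4L are short, and there a count of 0 allowed 18.1, 10.6 and 12.4 per kb.

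**Figure D2:**
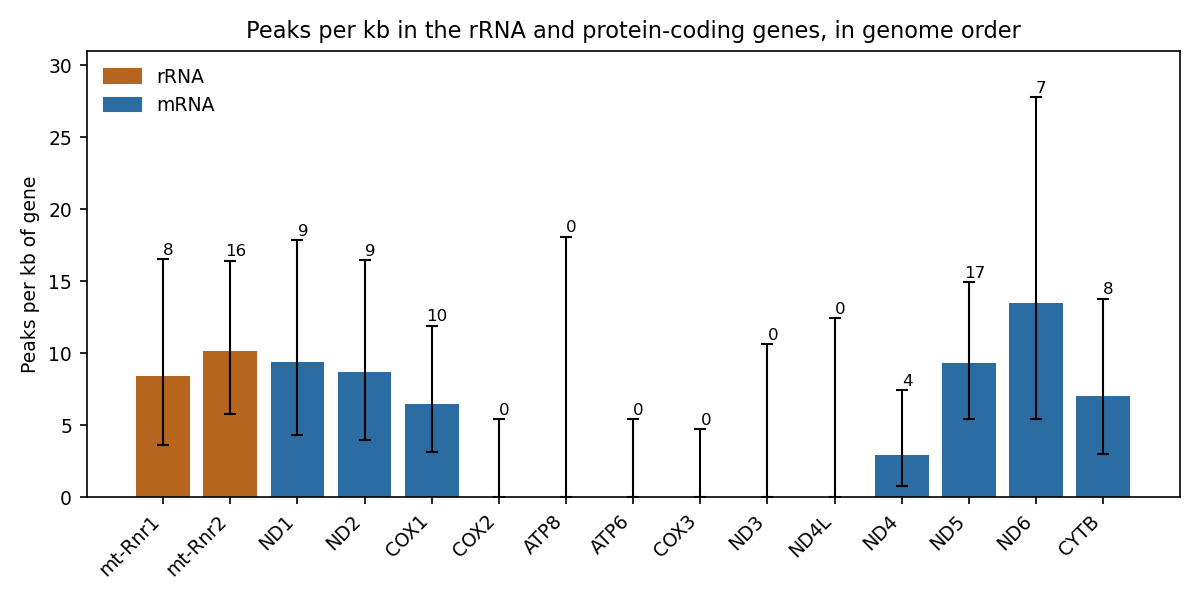
Peaks per kb of gene for the 2 rRNA and 13 protein-coding genes in genome order, with exact Poisson 95% intervals as bars and the number of peaks above each. The 6 genes from COX2 to ND4L have 0 peaks, ND4 has 4, and the genes on either side have between 7 and 17. Peaks of both strands are counted, and 5 of the 7 in ND6 and 1 of the 17 in ND5 are antisense.

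The protein-coding genes without a peak were neighbours. On the plus strand the bases from chrM:6438-9810, a stretch of 3373 nt from the end part of COX1 to TrnR, held no peak. After a single peak over TrnR (chrM:9811-9879), a further 1139 nt held none (chrM:9880-11018). No minus-strand peak lay there either, but the minus-strand gap around it was wider, at 7906 nt, and reached beyond both borders of the stretch. Since the stretch was delimited by its lack of peaks, its density and the counts of the genes inside it are a description only. From the first to the last base of both gaps there was 1 peak in 4581 nt (0.218 per kb), against 57 in the 6406 nt before (8.90 per kb, 6.74 to 11.5) and 36 in the 4408 nt after (8.17 per kb, 5.72 to 11.3). All 6 protein-coding genes that lie wholly between had 0 peaks, and all 7 others had at least 4. COX1 and ND4 are crossed by the borders of the stretch, and outside it their densities were 9.01 and 7.60 per kb.

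**Figure D3:**
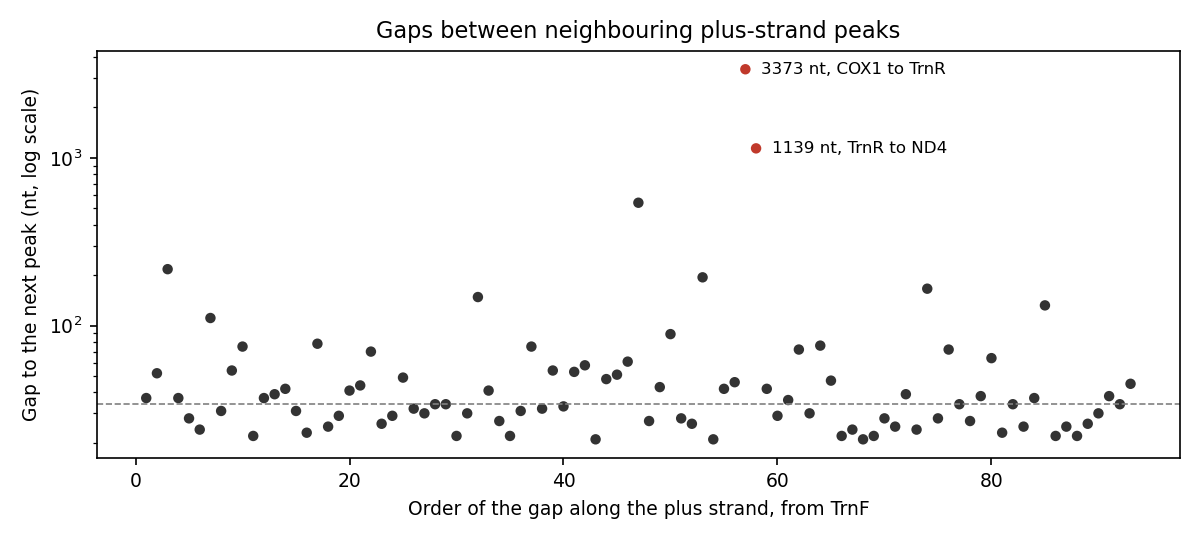
Number of bases between each plus-strand peak and the next (log scale), in order along the genome, with the median of 34 nt as a dashed line. The gaps of 3373 nt and 1139 nt on either side of TrnR stand above the others drawn, the next longest of which is 540 nt. The part from the last plus-strand peak around the circle to the first is not drawn.

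Density by RNA type depended on this stretch. Over whole genes, rRNAs had 9.46 peaks per kb (6.06 to 14.1), tRNAs 8.66 (4.61 to 14.8) and mRNAs 5.61 (4.32 to 7.17), a ratio of rRNA to mRNA of 1.69 (1.01 to 2.73). With the bases of the 2 long gaps left out, an alternative chosen after the data were seen, mRNAs had 8.99 per kb (6.92 to 11.5) and tRNAs 10.6 (5.65 to 18.1), and the ratio of rRNA to mRNA was 1.05.

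A pair of nuclear pseudogenes on chromosome 1 matches genes of this stretch in length and spacing. Gm10925 (chr1:24613971-24614651), a pseudogene for which the gene table gives mt-Atp6 as a synonym, is 681 nt long, as is ATP6. Gm10222 (chr1:24612404-24612700) is 297 nt long, as is ND4L, and the table gives it no synonym. The outer ends of the pair span 2248 nt on chromosome 1 and 2247 nt on the mitochondrial genome, in the opposite order. On the latter this is chrM:7927-10173, a part of the 4581 nt stretch, and it includes TrnR, which held a peak. Whether the nuclear copy extends further was not examined. Neither pseudogene had a peak, and the nearest peaks on chromosome 1 lay 848 kb to the left and 148 kb to the right. How the authors' processing placed reads that match both genomes is not given in the sources used here, and its part in the missing peaks was not tested. Peak counts of 0 in this stretch therefore do not show that its RNAs were absent from AGO2.

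Outside the stretch the plus-strand peaks followed each other closely. The 91 gaps there had a median of 34 nt (quartiles 27 and 50), 68 of them were at most 50 nt (74.7%), and none was under 21 nt. Neighbouring midpoints lay a median of 98 nt apart. By gene, the median gap was 26 nt within CYTB, 28 nt within ND5, 32 nt within ND1, 37 nt within each rRNA, 42 nt within COX1 and 52 nt within ND2. The longest of the 91 gaps, 540 nt (chrM:4950-5489), ran from the end of ND2 across TrnW and 4 minus-strand tRNA genes into the start of COX1. Gaps were taken in order along the reference and not around the circle. The last plus-strand peak ended at chrM:15426 and the first began at chrM:32. The part between them across the noncoding control region, longer than 540 nt and without a plus-strand peak, was therefore not counted. Malat1, an abundant nuclear lncRNA and the densest by span among nuclear genes with at least 10 peaks on 1 strand, had 38 peaks (5.44 per kb) with a median gap of 36 nt and 62.2% of gaps at most 50 nt. Slc1a2, a glutamate transporter gene with 45 peaks, had a median gap of 72.5 nt and 40.9% at most 50 nt. Atp1b1, a sodium pump subunit gene with 13 peaks, had a median gap of 32 nt and 66.7% at most 50 nt, so short gaps also occurred in nuclear genes. The 8 gaps on the mitochondrial minus strand had a median of 528.5 nt.

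Mitochondrial peaks had a median width of 54 nt (quartiles 40 and 70.5, range 15 to 226), and nuclear peaks 53 nt (32 and 80, 15 to 407). The medians were close, but narrow peaks were a smaller share on the mitochondrial genome. There 9 of 103 peaks were under 30 nt (8.74%, exact 95% interval 4.07 to 15.9), against 499 of 2094 nuclear peaks (23.8%, 22.0 to 25.7). No test was made of this difference. The narrowest mitochondrial peaks were 15 nt in ND5 (chrM:12348-12362), 16 nt in mt-Rnr2 and 20 nt in ND1 (chrM:3678-3697). The 57 plus-strand peaks before the long gaps had a median of 50 nt (interval of the median 42 to 54) and the 36 after them 67 nt (44 to 95), with overlapping intervals. Cover of the plus strand was 49.4% before and 66.9% after.

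Along the mRNAs, peaks were spread from the 5′ to the 3′ end. Of the 58 sense peaks in mRNAs, 10, 14, 11, 12 and 11 fell in 5 successive equal parts of the gene, and 5 lay in the last 10% of it (8.62%, exact 95% interval 2.86 to 19.0). Without COX1 and ND4, which lack peaks at 1 end, 4 of 44 lay in the last 10% (9.09%). The 24 rRNA peaks fell 5, 4, 4, 5 and 6 over these parts. Of 1624 nuclear peaks in a single protein-coding span, with direction taken from the peak, 1036 lay in the last 10% (63.8%, 61.4 to 66.1). Nuclear spans include introns and untranslated regions. Mitochondrial genes have no introns, and any untranslated sequence of their mRNAs beyond the gene spans used here was not considered. The shares are thus not over the same kind of sequence. The 6 antisense peaks in mRNA genes are left out of these counts.

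**Figure D4:**
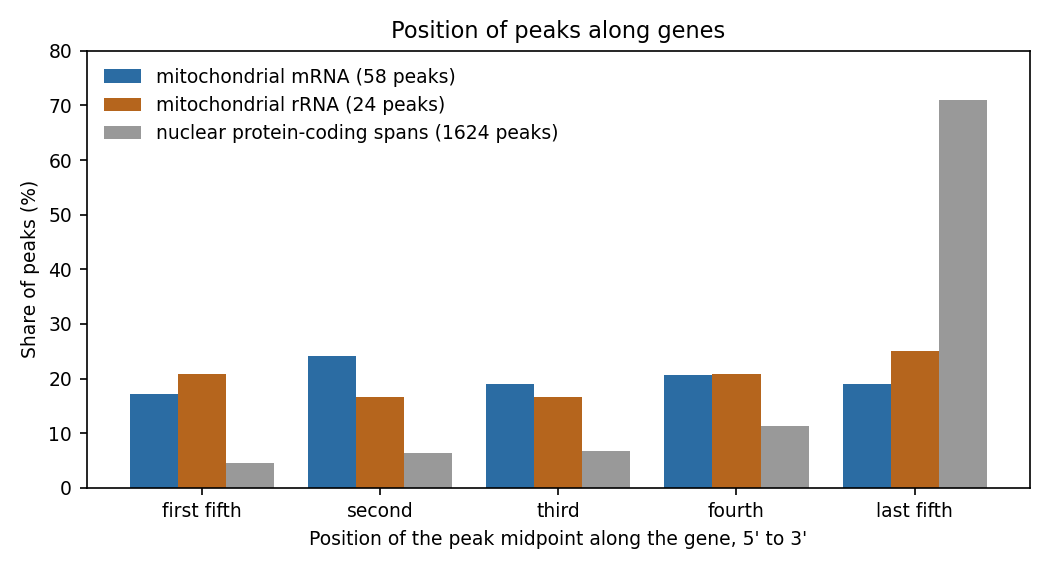
Share of peaks by position of the midpoint along the gene, in 5 equal parts from the 5′ to the 3′ end, for 58 sense peaks in mitochondrial mRNAs, 24 in mitochondrial rRNAs and 1624 in nuclear protein-coding gene spans. The mitochondrial shares lie between 16.7% and 25% in each part, while 70.9% of nuclear peaks lie in the last part.

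Of the 22 tRNA genes, which carry amino acids to the mitochondrial ribosome, 12 held the midpoint of a peak on their own strand, each with 1 such peak. The 3′ edges of these peaks followed the 3′ ends of the tRNA genes, while the 5′ edges varied. In all 12, the 3′ edge of the peak lay past the 3′ end of the gene, by 1 to 4 nt. Mature tRNAs carry a CCA tail at this end that their genes do not encode, and whether it bears on these edges was not tested. In 5 of the 12 the peak took in nearly the whole tRNA, with at least 80% of both shared. These were TrnQ (chrM:3770-3839, minus), TrnM (chrM:3852-3915), TrnC (chrM:5191-5253, minus), TrnR and TrnS2 (chrM:11614-11674). They were 61 to 70 nt wide, began 1 to 7 nt inside the 5′ end of the gene and covered 89.9% to 98.3% of it.

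The other 7 peaks covered the 3′ portion of their tRNA. They were TrnF (chrM:32-72), TrnV (chrM:1048-1097), TrnL1 (chrM:2713-2752), TrnI (chrM:3729-3776), TrnA (chrM:5016-5056, minus), TrnL2 (chrM:11705-11743) and TrnP (chrM:15354-15392, minus). They were 39 to 50 nt wide and began 23 to 37 nt inside the 5′ end, so that 50.7% to 66.7% of the gene was covered. None of the 12 covered only the 5′ portion. Both forms occurred on both strands. The remaining peak with its midpoint in a tRNA gene was a plus-strand peak of 105 nt (chrM:15322-15426) that began 33 nt inside TrnT and ran across TrnP, which is encoded opposite.

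The tRNA genes without the midpoint of a peak were TrnS1, TrnD, TrnK and TrnG within the stretch without peaks, and TrnW, TrnN, TrnY, TrnH, TrnE and TrnT elsewhere. Of the 17 tRNA genes outside the stretch, 11 thus held a peak by midpoint. By strand, 8 of 14 plus-strand and 4 of 8 minus-strand tRNA genes did. The last 2 peaks lay outside all genes, both on the minus strand, at chrM:16032-16107 and chrM:16131-16189. They fall beyond TrnP in the noncoding control region, which holds the start sites of transcription of both strands.

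The peak names describe the list in another way. Names are numbered, and the numbers follow chromosome, then strand, then start for all 2197 peaks, up to 14469, which is a mitochondrial peak. The listed peaks thus make up 15.2% of that range of numbers, and what the other numbers stood for is not given in the sources used here. On the mitochondrial plus strand the list holds 94 of 104 consecutive numbers, 14342 to 14445 (90.4%, exact 95% interval 83.0 to 95.3). On the minus strand it holds 9 of 22 (40.9%, 20.7 to 63.6). The 40 nuclear blocks of 1 chromosome and strand ranged from 9.15% to 30.4%, with a median of 14.8%. Across the plus-strand gap of 3373 nt 1 number is missing, and across that of 1139 nt 0 are, so at most 1 plus-strand entry of the numbered series began there. On the minus strand 6 numbers are missing between the last listed peak before the stretch and the first after it, and where those entries lay is not known.

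**Figure D5:**
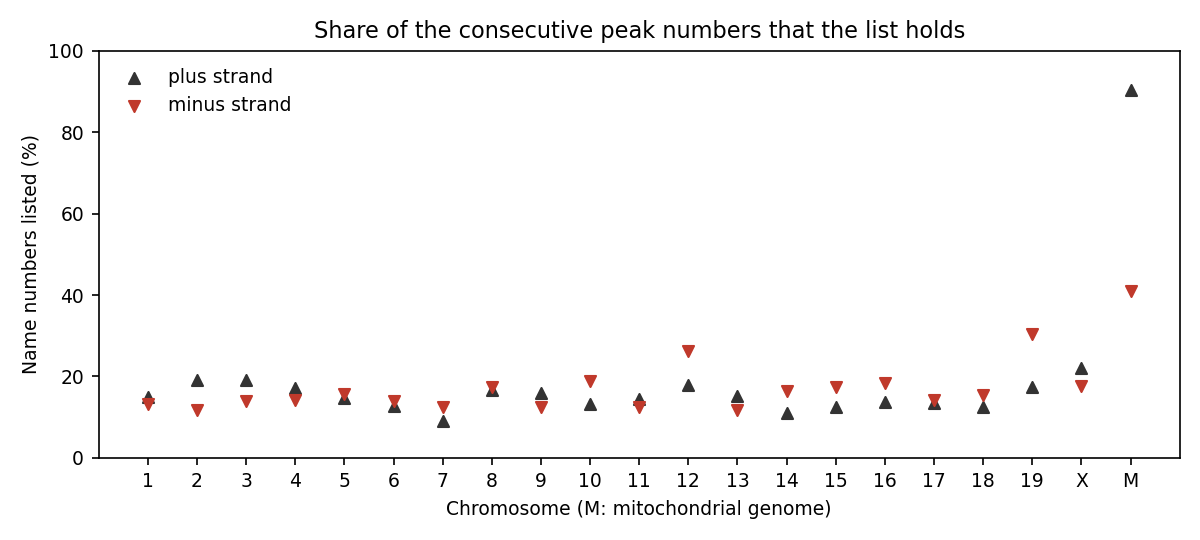
Share of the consecutive peak numbers between the lowest and highest of each chromosome and strand that the deposited list holds. The mitochondrial plus strand stands at 90.4% and its minus strand at 40.9%, and all 40 nuclear blocks lie at or below 30.4%.

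Of 77 nuclear genes for subunits of the respiratory complexes, 5 had a peak (6.49%, exact 95% interval 2.14 to 14.5). Among all nuclear protein-coding genes 970 of 21887 had one (4.43%), a share within that interval. Atp5b, the catalytic beta subunit of complex V (chr10:128083307-128090388), had 5, of which 4 lay in no other gene span. Atp5a1, its alpha subunit, Ndufs7 of complex I, and Cox6b1 and Cox7a2 of complex IV had 1 each. The Cox7a2 peak also lay in the span of another gene. None of the 4 complex II genes and none of the 10 complex III and cytochrome c genes had one. Of 22 genes for transcription and handling of mitochondrial RNA, such as Tfam and Lrpprc, 0 had a peak, which allows a share of up to 15.4% (upper end of the exact 95% interval).

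Published work has tied a number of miRNAs to mitochondria, among them miR-181c-5p with COX1 in heart, miR-1a-3p with ND1 and COX1 in muscle, miR-378a with ATP6 and miR-21a-5p with CYTB. Their counts in the AGO2-bound miRNA libraries, which held 66854 counts in replicate 1 and 75658 in replicate 2, are the only per-library values here. No mitochondrial genome sequence was used, so seeds were not matched to the peaks, and no count assigns a peak to a miRNA. Mature sequences from RefSeq (GRCm38.p6), 5′ to 3′ with the seed (bases 2 to 8) in capitals, are shown for the miR-181 members, which share a seed and led the miRNAs with a sequence, and for miR-21a-5p, linked to CYTB.
miR-181a-5p: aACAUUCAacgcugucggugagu
miR-181b-5p: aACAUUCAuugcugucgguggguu
miR-181c-5p: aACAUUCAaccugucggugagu
miR-21a-5p: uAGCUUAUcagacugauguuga

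miR-181a-5p had 660 and 693 counts in the 2 libraries, or 0.952% ± 0.0504 of all counts (SD, n = 2). miR-181b-5p had 415 and 381 (0.562% ± 0.0829), and miR-181c-5p had 200 and 241 (0.309% ± 0.0137). The order of the 3 was the same in both libraries. miR-21a-5p differed more between the libraries, with 71 counts in replicate 1 and 143 in replicate 2 (0.148% ± 0.0586). miR-124-3p, a neuronal miRNA also found in mitochondrial fractions, led the list with 3684 and 4258 counts (5.57% ± 0.0830).

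The muscle miRNAs were scarce. miR-1a-3p had 19 counts in each library (0.0268% ± 0.00234) and miR-133a-3p 6 and 8. miR-378a-3p had 16 and 23 counts and miR-378a-5p 3 and 2. miR-338-3p, reported to act on the nuclear mRNA of a complex IV subunit in axons, had 7 and 19. miR-762 and miR-499-5p had 0 in both. A fixed floor of 3 counts would make a share of 0.00449% (replicate 1) and 0.00397% (replicate 2). This floor is not the upper end of an exact interval as used for the peaks. No label ties the replicates to separate animals, and their spread may be technical.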

How the data were processed

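Peaks were used as the chromosome, start, end, name and strand in the list that the authors deposited on mm10. The score in the deposited list is 0 for all peaks and was not used. The miRNA values are counts per mature miRNA that the authors deposited without normalization, with duplicate reads kept per their name. Among the tools that the submitters' processing notes list, without a role, are the aligners STAR 2.5.2a and Bowtie2 2.4.2 and the read trimmer cutadapt 2.10. The peak caller is not given in the sources used here. Gene spans came from RefSeq GRCm38.p6, the assembly of mm10. Gene strand and RNA type were added from general knowledge. A midpoint in overlapping genes went to the gene on the strand of the peak. Of 103 peaks, 13 overlapped at least 2 genes. Intervals are exact (binomial, Poisson, and order statistics for medians, 95%) and cover counting error only. Of 23 gene names for mitochondrial RNA handling, 22 matched. Mature sequences were used for 7 of 12 listed miRNAs. Members and lists were chosen with earlier results of these data known. Genes named are all 37 mitochondrial genes, with every minus-strand or intergenic peak, the 3 widest and narrowest peaks, nuclear list genes and pseudogene copies with their counts. Nuclear genes with 1 peak, Malat1, Slc1a2, Atp1b1 and both pseudogenes without a peak are outside that rule and were named after their values were seen. Python 3.11.15, pandas 2.3.3 and SciPy 1.17.1 were used. Gene assignment and intervals were tested on simulated data.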

Additional observations from a re-analysis of the deposited data

How the results depend on the processing

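Nothing here was tested between groups, so the alternatives show how counts and ratios moved. Counts by RNA type stayed within 1.5 times under the 5′ end rule (1 peak changed gene), own-strand peaks and peaks of at least 30 nt. Keeping peaks up to the median width left 31 in mRNAs and 7 in tRNAs. Any overlap gave 20 for tRNAs. Requiring the whole peak inside the gene gave 0 for tRNAs, and so a tRNA to mRNA ratio of 0, because each tRNA peak crosses an end of its gene. The ratio of rRNA to mRNA density lay between 1.05, without the long gaps, and 2.32, for peaks up to the median width, and was 1.33 by bases covered. The plus share was 90.4% for peaks of at least 30 nt. No peaks lay within 10 nt of each other on 1 strand, so merging changed nothing. The median gap over both strands was 37 nt and the median distance between midpoints 100.5 nt, a different quantity. With at least 2 peaks required, 1 nuclear respiratory chain gene was left, and with a peak in no other gene span required, 4 were. The listed miRNAs held 7.62% of the counts together, between 7.60% and 7.65% when a replicate was left out, and 8.79% with the most abundant miRNA out of the total. No paired analysis was possible because the peaks have no per-library values and the miRNA counts form 1 group.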

Other observations

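Across all chromosomes, no 2 peaks of the list on the same strand lay closer than 21 nt and no peak was narrower than 15 nt. The smallest mitochondrial gap, in ND2, COX1 and ND5, stood at that lower bound of 21 nt. Mitochondrial peaks made up 4.81% of all bases covered by peaks, close to their 4.69% share by number.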
